A study of Rattus norvegicus with 35 samples.

Results

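Liver expression in rats given the highest dose of TBB, which is 2-ethylhexyl-2,3,4,5-tetrabromobenzoate, a brominated ester used as a flame retardant, was set against a reference made of vehicle and the 3 lowest doses together. The labels put 6 arrays at 550 mg/kg and 23 arrays in the reference, which held vehicle (corn oil alone, n = 5) and 0.05, 0.55 and 5.50 mg/kg (n = 6 each), so 29 of the 35 arrays of the series entered the comparison. The remaining 6 arrays, at 55 mg/kg, served for a second comparison. All groups were male Harlan Sprague Dawley rats, 7 weeks of age at the start, which received TBB in corn oil or the oil itself by gavage at 5 ml/kg on 5 consecutive days. Livers were taken 1 day after the last dose, and RNA of the left lobe was hybridised to single-colour 3' expression arrays. The labels do not state that each array is a separate animal, so p-values reflect only how these samples vary, part of which may be technical. Targets of the aryl hydrocarbon receptor (AhR), of PPARalpha and of NRF2 serve only as landmarks below.

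A resting liver is built of hepatocytes that rarely divide, and most of its RNA serves secretion, intermediary metabolism and the handling of foreign compounds. When hepatocytes are pushed to grow or divide, cyclins and cyclin-dependent kinases carry them through DNA synthesis and mitosis, while the nucleolus normally makes ribosomes in step with growth. Mitochondria oxidise pyruvate, fatty acids and the branched-chain amino acids, feed acetyl groups into the tricarboxylic acid cycle and import most of their proteins from the cytosol. The gene lists described here follow those processes.

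The values were log2 expression values per probe set. The arrays were alike, with pairwise correlations from 0.988 to 0.996 over 595 pairs and no identical pair, and their medians lay between 5.09 and 5.16. The hepatocyte genes Alb, Ttr and Serpina1 stood at the 100th percentile of all probe sets in the pool, whereas 29 genes of other tissues had a median log2 level of 3.66 against 5.12 over all probe sets. Cela1 was the highest of those 29, at 10.1. The number of arrays limits the precision, and the median standard error of a difference was 0.064 with a 95% half-width of 0.13 on the log2 scale. The differences between the signals at the 3' and 5' ends of beta-actin, a measure of RNA quality, ran from 1.03 to 1.32 at 550 mg/kg and from 1.07 to 1.60 in the pool. Among the 4 pooled groups themselves, limma's moderated F test called 0 probe sets after adjustment, and 1173 (3.78%) had an unadjusted p under 0.05.

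At 550 mg/kg, 772 of 31042 probe sets (2.49%) differed from the pool at an adjusted p under 0.05 in limma, 461 higher and 311 lower. Taking for each gene its brightest probe set, 559 of 14217 genes (3.93%) were called, 341 higher (2.4%) and 218 lower (1.53%). Outside the AhR, PPARalpha and NRF2 lists 522 genes remained, 304 higher and 218 lower. The changes were mostly small, since 65 probe sets reached 1.5-fold, 47 of them higher. All 6 arrays lay above all 23 pooled arrays for 58 genes (0.408%) and below them for 9 genes (0.0633%). The median difference over all genes was -0.00323. The calls depended on the reference. Vehicle alone, which is both smaller and without the low doses, gave 41 called probe sets in place of 772, and references lacking 0.05, 0.55 or 5.50 mg/kg gave 497, 596 and 706. Leaving out single arrays gave between 490 (without 550 mg/kg replicate 4) and 831 (without 5.50 mg/kg replicate 1).

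As landmarks of the exposure, Cyp1a1, the AhR-controlled cytochrome P450, was 157-fold higher than in the pool, Nqo1, a quinone reductase controlled by NRF2, 3.76-fold higher, and the PPARalpha target Acot1 8.81-fold higher, each with all 6 arrays above all 23. The lists outside these 3 pathways with 3 or more called members were led by mitosis among those that rose and by ribosome biogenesis among those that fell. The shares over all genes, 2.4% higher and 1.53% lower, are the background for every list count below.

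**Figure D1:**
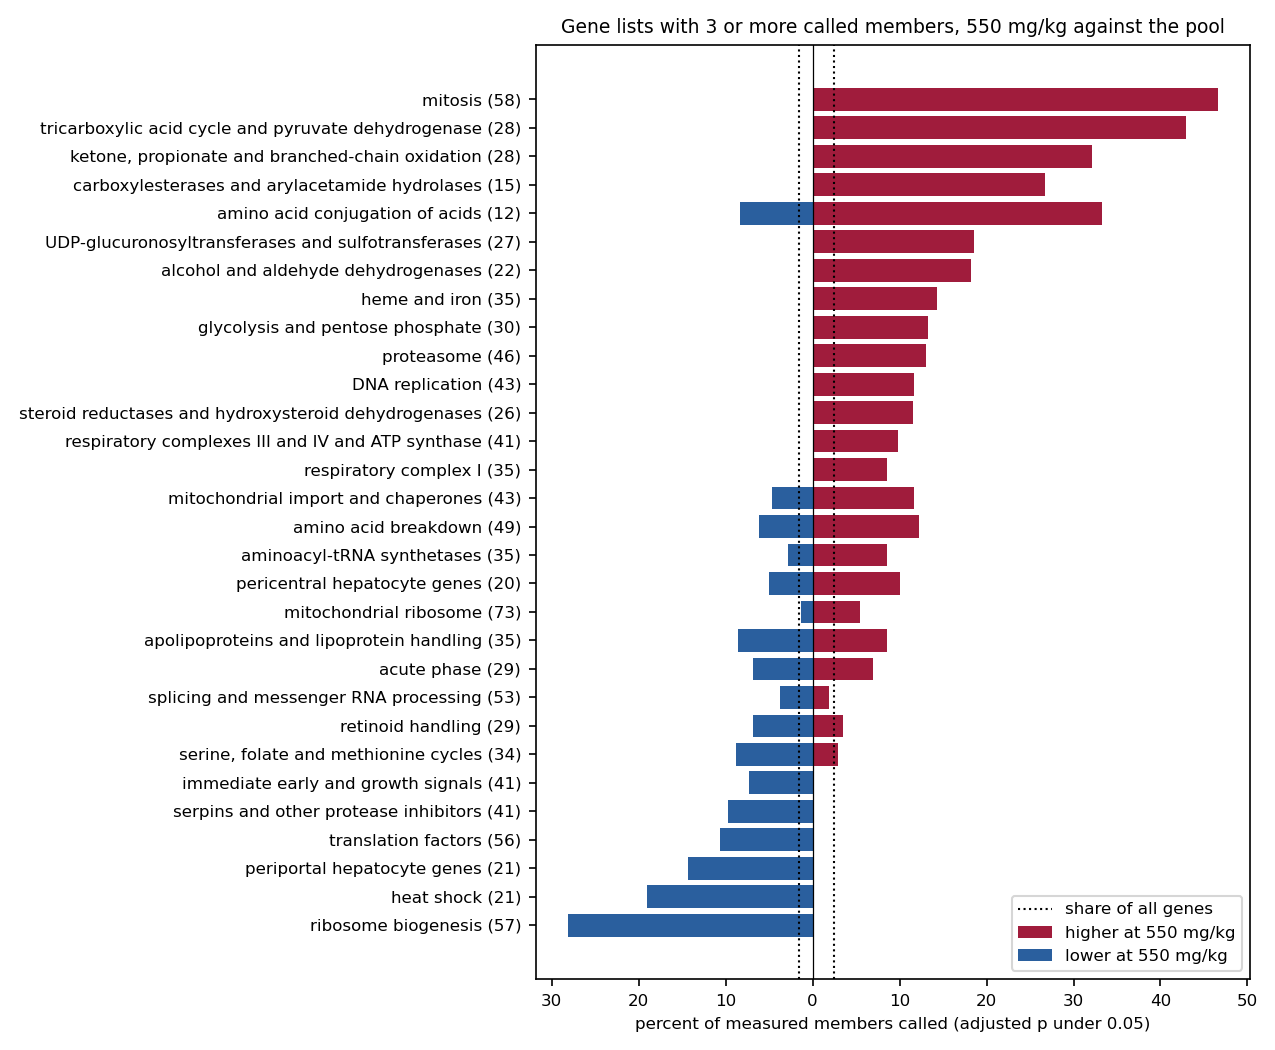
Share of the measured members of each gene list called at an adjusted p under 0.05 at 550 mg/kg against the pool, in percent, with members higher at 550 mg/kg to the right, members lower to the left and the number of measured members in parentheses. Dotted lines mark the shares over all genes, 2.4% higher and 1.53% lower. Mitosis (27 of 58 higher) and ribosome biogenesis (16 of 57 lower) lie at the opposite ends.

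Genes of mitosis rose at 550 mg/kg. Of 58 measured members 27 were called, all higher, against 2.4% of all genes, and 53 of the 58 differences were positive with a median of 0.286. Cyclin B2 (Ccnb2), which activates Cdk1 for entry into mitosis, had log2 levels from 6.29 to 7.60 with a median of 6.77 at 550 mg/kg, and from 5.25 to 6.70 with a median of 5.89 in the pool. Every high-dose array was above the pool mean and 3 of the 6 were above its highest array. The difference was 0.92 ± 0.17 (SE; 1.89-fold, adjusted p = 0.0015). Mki67, the proliferation marker Ki-67, ran from 4.19 to 5.33 (median 4.48) against 3.36 to 4.25 (median 3.79), with 5 of 6 arrays above the whole pool. Its difference was 0.91 ± 0.13 (SE; adjusted p = 4.4e-05). Cdk1, the mitotic kinase itself, lay between 6.01 and 7.11 (median 6.22) against 4.52 to 6.31 (median 5.50), with 3 arrays above the pool and a difference of 0.81 ± 0.18 (SE; adjusted p = 0.008). In tissue of mixed cells, more dividing cells and more of these RNAs per cell cannot be told apart, and neither can fewer cells of a type and less RNA per cell for what fell.

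Replicates 5 and 6 were the highest of the 6 high-dose arrays for the mitosis list. Their list means stood 0.472 and 0.584 above the pool mean on the log2 scale, and the other 4 stood between 0.134 and 0.263, where the pool itself reached 0.237. The called members covered the successive steps of division. Ccnb1, the other B-type mitotic cyclin, rose by 0.64, and Pttg1 (securin) and Espl1 (separase), which hold and release sister chromatids, by 0.57 and 0.18. The spindle checkpoint kinase Bub1 and the kinetochore proteins Spc24, Spc25 and Nuf2 rose by 0.68, 0.69, 0.58 and 0.39. For cytokinesis, Ect2 and Racgap1, which position the contractile ring, rose by 0.67 and 0.53, and Aurkb of the chromosomal passenger complex by 0.57. Cdca3, which promotes the destruction of the mitosis inhibitor Wee1, rose by 0.79. Leaving out 550 mg/kg replicate 5 gave 18 called members, the fewest of any single array. Several members, Mki67 among them, lay close to background. Leaving out the 40% dimmest probe sets removed Mki67 and gave 19 called members.

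Promoter sequence of 4 of the strongest members is shown because mitotic genes share a known pair of elements, the cell cycle genes homology region (CHR) and the CCAAT box. The sequences are the 250 bases before each RefSeq transcription start of the GRCr8 assembly, written 5′ to 3′ on the gene's strand. Capitals mark CHR matches (TTTGAA or TTCGAA) and CCAAT boxes (CCAAT), each searched on both strands. Ccnb2 lies at chr8:79981659-79981908 on the minus strand, Mki67 at chr1:199952594-199952843 on the minus strand, Cdk1 at chr20:19265043-19265292 on the plus strand and Cdca3 at chr4:159320953-159321202 on the plus strand.
Ccnb2: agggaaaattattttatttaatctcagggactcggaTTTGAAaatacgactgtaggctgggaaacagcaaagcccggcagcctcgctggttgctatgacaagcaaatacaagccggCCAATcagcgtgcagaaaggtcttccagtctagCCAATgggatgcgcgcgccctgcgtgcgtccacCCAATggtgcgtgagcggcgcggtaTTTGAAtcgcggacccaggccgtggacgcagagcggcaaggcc
Mki67: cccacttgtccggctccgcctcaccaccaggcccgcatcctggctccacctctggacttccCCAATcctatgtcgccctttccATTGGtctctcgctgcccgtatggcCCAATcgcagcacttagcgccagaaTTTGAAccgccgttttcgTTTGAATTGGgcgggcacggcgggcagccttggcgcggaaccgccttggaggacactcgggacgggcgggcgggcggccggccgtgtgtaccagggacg
Cdk1: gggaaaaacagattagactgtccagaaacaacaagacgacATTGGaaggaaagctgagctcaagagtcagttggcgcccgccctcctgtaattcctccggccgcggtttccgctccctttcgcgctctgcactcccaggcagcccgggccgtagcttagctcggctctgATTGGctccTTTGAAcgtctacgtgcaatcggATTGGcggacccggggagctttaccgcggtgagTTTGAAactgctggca
Cdca3: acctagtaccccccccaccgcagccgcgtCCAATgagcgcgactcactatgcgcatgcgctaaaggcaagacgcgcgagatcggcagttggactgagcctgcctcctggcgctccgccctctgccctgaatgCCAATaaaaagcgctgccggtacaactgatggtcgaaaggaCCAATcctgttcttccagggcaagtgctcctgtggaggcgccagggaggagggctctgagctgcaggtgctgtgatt
Ccnb2, Mki67 and Cdk1 each held 2 CHR matches, and in Mki67 one of them overlaps a CCAAT box read on the other strand. Cdca3 held none but had 3 CCAAT boxes. Of the 23 called mitosis genes with an entry, 12 (52.2%) held a CHR and 19 (82.6%) a CCAAT box, against 17.3% and 34.3% of all 27457 promoters of that length. Among the 28 mitosis genes that were not called, 14 (50%) held a CHR and 19 (67.9%) a CCAAT box. The difference between called and other members was not tested. A match is a description of these letters and shows no bound factor.

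**Figure D2:**
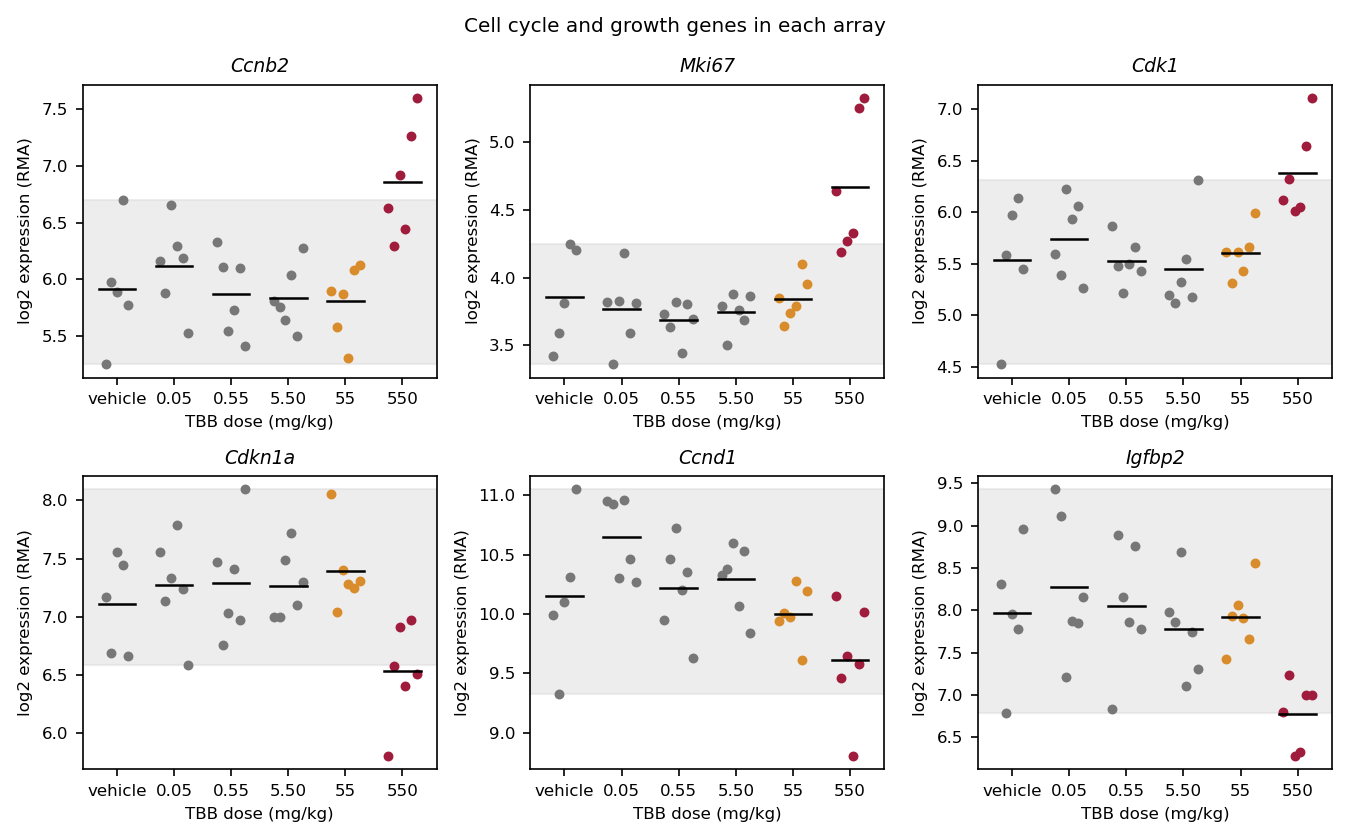
Log2 expression of 6 cell cycle and growth genes in each array by TBB dose in mg/kg, where points are arrays, black lines group means and the grey band the range of the 23 pooled arrays. Ccnb2, Mki67 and Cdk1 were high and Cdkn1a, Ccnd1 and Igfbp2 low at 550 mg/kg (dark red), whereas the 55 mg/kg arrays (orange) lay mostly inside the band.

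Of 43 genes of DNA replication 5 were called (11.6%), all higher, against 2.4% of all genes. In this list 38 differences were positive and the median was 0.0723. Cyclin A2 (Ccna2), which acts in S phase and in G2, rose by 0.83 ± 0.17 (SE; adjusted p = 0.0029). The nucleotide enzymes Rrm1, Dut and Tk1, which make and clean the supply of DNA precursors, rose by 0.31, 0.26 and 0.20, and Gins4, a part of the replicative helicase, by 0.21. The call for Gins4 was lost without 550 mg/kg replicate 2, 5 or 6 (adjusted p up to 0.13), and the count of 5 fell to 3 without replicate 5 or 6. Cdkn3, a phosphatase that acts on cyclin-dependent kinases, belonged to no list and had the largest increase outside the 3 landmark pathways, 1.04 ± 0.20 (SE; 2.06-fold, adjusted p = 0.0021). Its levels ran from 6.49 to 7.91 (median 6.95) against 5.04 to 7.00 (median 6.03) in the pool.

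Cdkn1a and Ccnd1, which act in opposite directions on entry into the cycle, were both lower, as were Igfbp2 and Ghr of growth signalling. Their lists did not move as a whole, with medians of 0.0485 for p53 targets and -0.00472 for immediate early and growth genes. Cdkn1a, the cyclin-dependent kinase inhibitor p21, ran from 5.81 to 6.97 (median 6.54) at 550 mg/kg and from 6.59 to 8.10 (median 7.24) in the pool, with 4 of 6 arrays below all 23. It fell by 0.71 ± 0.17 (SE; 1.63-fold, adjusted p = 0.014), and its second probe set, at -0.65, was not called. No other of the 20 measured p53 targets was called. Cyclin D1 (Ccnd1), which drives the G1 phase, ran from 8.80 to 10.15 (median 9.61) against 9.32 to 11.05 (median 10.33), groups that overlapped in all but 1 array. All 3 of its probe sets were called, the main one at -0.73 ± 0.19 (SE; adjusted p = 0.029). Igfbp2, a secreted binding protein for insulin-like growth factors, ran from 6.28 to 7.23 (median 6.89) against 6.79 to 9.43 (median 7.88), and fell by 1.25 ± 0.28 (SE; 2.37-fold, adjusted p = 0.0098). The growth hormone receptor Ghr fell by 0.23, and the other 38 of the 41 immediate early and growth genes did not pass the test. The call for Cdkn1a was lost without 550 mg/kg replicate 1 (adjusted p = 0.086), and that for Ccnd1 without replicate 2, 3, 4 or 5 (adjusted p up to 0.16).

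Many genes of ribosome biogenesis fell. Of 57 measured members 16 were called, all lower, against 1.53% of all genes, and 54 of the 57 were negative with a median of -0.215. Gar1, a protein of the H/ACA particles that modify ribosomal RNA, ran from 6.45 to 7.22 (median 6.95) against 6.88 to 7.77 (median 7.44), with 3 of 6 arrays below the pool. It fell by 0.47 ± 0.12 (SE; 1.39-fold, adjusted p = 0.017). Ddx21, a nucleolar RNA helicase, ran from 8.26 to 8.83 (median 8.60) against 8.67 to 9.84 (median 8.91), again with 3 arrays below the pool, and fell by 0.42 ± 0.10 (SE; adjusted p = 0.021). Nop56, a core protein of the box C/D particles, fell by 0.37 with 4 arrays below the pool, and Heatr1, which supports transcription and processing of the ribosomal RNA precursor, by 0.42. Factors of the large subunit were among the others, with Bop1 at -0.32, Gnl2 at -0.35, Mrto4 at -0.23 and Nop2 at -0.24, as were Tsr1 (-0.32) and Nob1 (-0.23) of small subunit maturation and Polr1c (-0.18), a subunit shared by RNA polymerases I and III. Ddx21 and Nop56 each had a second probe set, at -0.24 and -0.23, that was not called.

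The ribosome biogenesis means of the high-dose arrays lay between 0.0709 and 0.351 below the pool mean, and 3 of the 6 were below the lowest pooled array. Replicates 1, 3 and 4 were the lowest, at -0.245, -0.351 and -0.319, and these were not the arrays highest for mitosis. The count of calls rested on them, since it fell from 16 to 6 without replicate 1, to 2 without replicate 3 and to 3 without replicate 4. Gar1 lost its call without replicate 3 or 4, as did Nop56, Ddx21 without replicate 1, 3 or 4 and Heatr1 without replicate 3, 4 or 6 (adjusted p up to 0.11). In the promoter window of the 14 called members with an entry, the E-box CACGTG, which reads the same on both strands, occurred in 1 (7.14%), against 8 of the 37 members with an entry that were not called (21.6%) and 5.79% of all promoters. The core of the AhR's xenobiotic response element, GCGTG on either strand, occurred in 11 of the 14 (78.6%) and in 24 of the 37 (64.9%), against 27.2% of all promoters. In mitosis promoters the same core occurred in 9 of the 23 called (39.1%) and 8 of the 28 not called (28.6%). GC content was not matched in this description, the differences were not tested, and a match shows no bound factor.

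**Figure D3:**
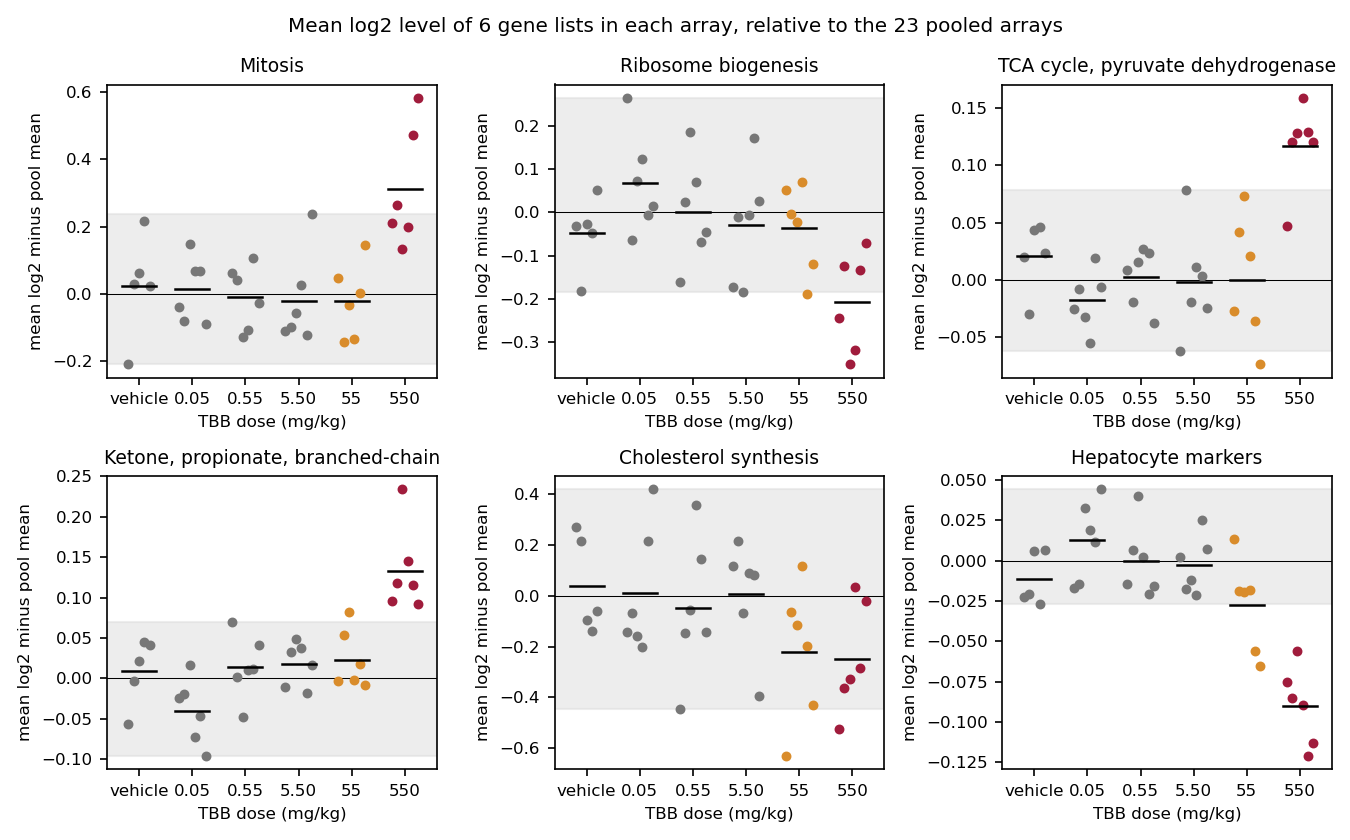
Mean log2 level of 6 gene lists in each array, as the difference from the mean of the 23 pooled arrays, by TBB dose in mg/kg, with points for arrays, black lines for group means and a grey band for the range of the pool. The high-dose arrays of the ketone, propionate and branched-chain list (0.0919 to 0.234) all lie above the band and those of the hepatocyte markers (-0.121 to -0.0562) all below it.

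Some translation factors and heat shock genes also fell. Of 56 translation factors 6 were called, all lower, with a median of -0.0617. Eif1a and Eif3j, which act in the scanning initiation complex, fell by 0.32 (adjusted p = 0.0067) and 0.24 (adjusted p = 0.0019). None of the 48 measured proteins of the cytosolic ribosome was called, and 40 of them were negative, with a median of -0.0452. Of 21 heat shock genes 4 were called, all lower, and 17 were negative, with a median of -0.144. Hsph1, a large chaperone that serves as exchange factor for HSP70, ran from 8.01 to 8.53 (median 8.31) against 8.43 to 9.07 (median 8.80), with 5 of 6 arrays below the pool, and fell by 0.45 ± 0.09 (SE; adjusted p = 0.002). Both of its probe sets were called. Dnaja1, an HSP70 co-chaperone, and Fkbp4 and Stip1, co-chaperones of HSP90, fell by 0.20, 0.22 and 0.21. Fkbp4 was not called without 550 mg/kg replicate 1 (adjusted p = 0.068), and Stip1 lost its call without any of replicates 1 to 5 at 550 mg/kg, vehicle replicate 5 or 0.55 mg/kg replicate 3 (adjusted p up to 0.12). The 6 translation factors became 3 without 550 mg/kg replicate 1, 3 or 4 or any of 6 pooled arrays (vehicle replicate 5, 0.05 mg/kg replicate 4, 0.55 mg/kg replicate 2, 3 or 4, 5.50 mg/kg replicate 5), and the 4 heat shock genes 2 without 550 mg/kg replicate 1.

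The proteasome, which degrades marked proteins, was higher in part. Of 46 subunits 6 were called, all higher, 31 were positive and the median was 0.0447. The core subunits Psmb3 and Psmb7 rose by 0.21 (adjusted p = 0.0037) and 0.19 (adjusted p = 0.0078), both with all 6 arrays above all 23. Psmb4, Psmd2 and the activator subunits Psme1 and Psme2 made up the other calls, at 0.15, 0.14, 0.17 and 0.19. The count fell to 2 without 550 mg/kg replicate 4, to 3 without replicate 5 or 6, and to 3 when each array's median was subtracted. Psme1 lost its call without replicate 1 or 4, and Psme2 without replicate 1, 4, 5 or 6 at 550 mg/kg or 0.05 mg/kg replicate 4 (adjusted p up to 0.17).

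**Figure D4:**
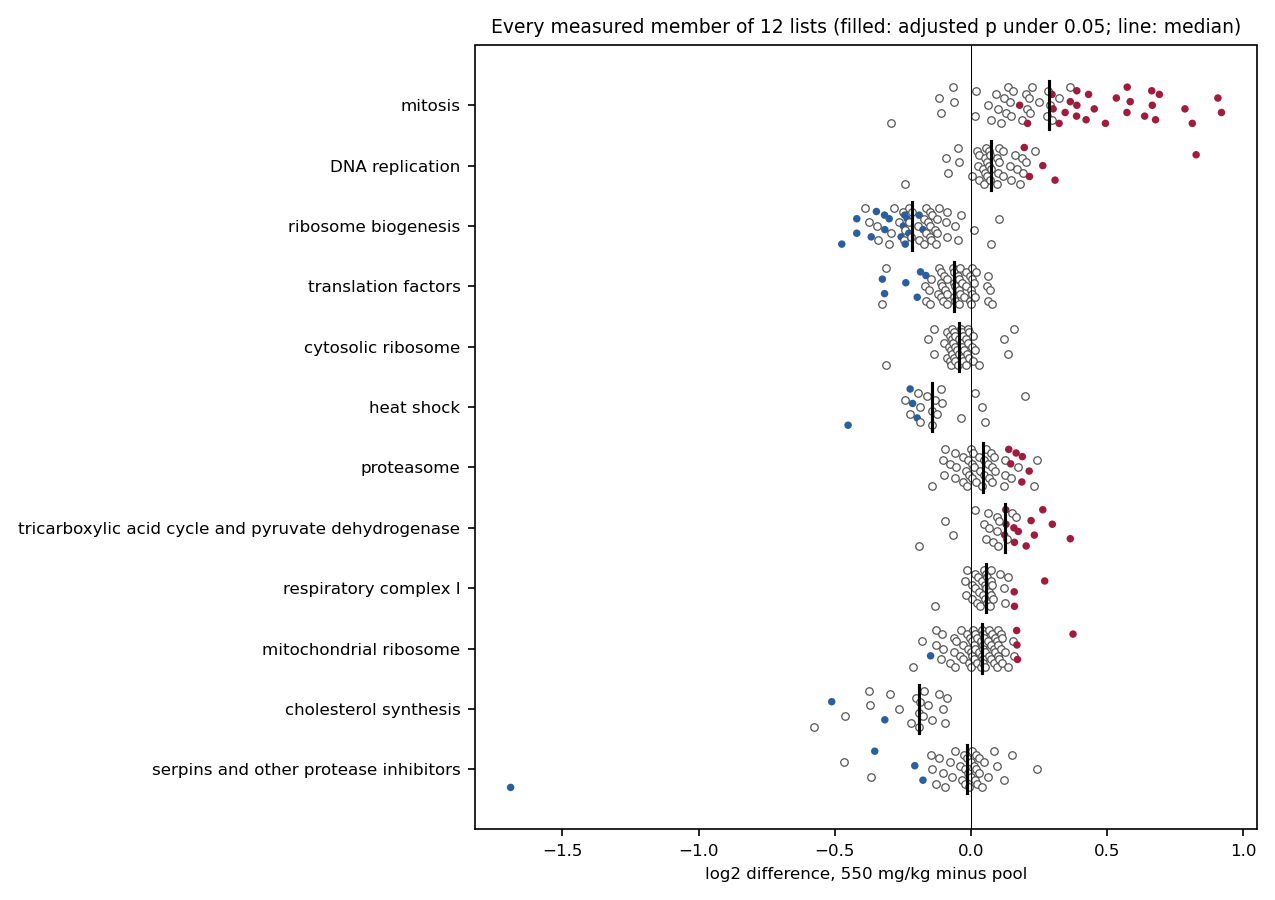
Log2 difference between 550 mg/kg and the pool for every measured member of 12 lists, with filled points for members called at an adjusted p under 0.05, open points for the others and a black line at each list's median. All 27 called mitosis genes lie to the right of 0 and all 16 called ribosome biogenesis genes to the left, and the 21 cholesterol synthesis genes all lie to the left with 2 of them called.

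Some genes of mitochondrial oxidation rose by small amounts. Of 28 genes of the tricarboxylic acid cycle and pyruvate dehydrogenase 12 were called, all higher, 25 were positive and the median was 0.126. Idh2, the mitochondrial NADP-dependent isocitrate dehydrogenase, ran from 10.25 to 10.47 (median 10.36) against 9.78 to 10.17 (median 10), with no overlap. Its difference was 0.36 ± 0.05 (SE; 1.29-fold, adjusted p = 6e-06). Pdha1, the catalytic subunit of pyruvate dehydrogenase, rose by 0.26 (adjusted p = 0.0016), and both of its probe sets were called. The NAD-dependent isocitrate dehydrogenase subunits Idh3g and Idh3b rose by 0.23 and 0.20, the pyruvate carrier subunit Mpc2 by 0.22, and 3 subunits of succinate dehydrogenase, Sdha, Sdhb and Sdhd, by 0.16, 0.12 and 0.13. The count was 6 without any of 550 mg/kg replicates 2, 3, 4 and 5.

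Some genes for the oxidation of ketones, propionate and the branched-chain amino acids also rose. All 6 high-dose list means were above the highest pooled mean, at 0.0919 to 0.234 against at most 0.07. Of 28 members 9 were called, all higher, 26 were positive and the median was 0.129. Acat1, the mitochondrial acetoacetyl-CoA thiolase of ketone and isoleucine metabolism, ran from 11.85 to 12.11 (median 11.98) against 11.21 to 11.79 (median 11.56), with no overlap, and rose by 0.42 ± 0.05 (SE; 1.34-fold, adjusted p = 5e-06). Mccc2 and Mccc1, the subunits of the leucine-degrading methylcrotonyl-CoA carboxylase, rose by 0.26 and 0.19. Hibch and Acad8 of valine breakdown rose by 0.23 and 0.28, Auh of leucine breakdown by 0.21 and Bdh1, which interconverts the ketone bodies, by 0.16. Bdh2, a cytosolic short-chain dehydrogenase that was not on the list, ran from 5.17 to 6.07 (median 5.46) against 4.38 to 5.46 (median 4.78) and rose by 0.72 ± 0.13 (SE; adjusted p = 0.0012). Leaving out 550 mg/kg replicate 3, the highest array for these genes, gave 4 calls in place of 9 and took the call of Acad8 (adjusted p = 0.051).

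In the other mitochondrial lists most members did not pass the test. Complex I had 3 of 35 members called, all higher, with Ndufs1, its largest iron-sulfur subunit, at 0.27 (adjusted p = 1.5e-05). The list of complexes III and IV and ATP synthase had 4 of 41 called, all higher, among them the Rieske protein Uqcrfs1 at 0.16 (adjusted p = 0.0016) and the ATP synthase inhibitor Atp5if1 at 0.35 (adjusted p = 0.00035). The mitochondrial ribosome had 4 of 73 called higher (5.48%) and 1 lower (1.37%), led by Mrps27 at 0.38 (adjusted p = 0.00046). Over all genes the shares were 2.4% and 1.53%. Without 550 mg/kg replicate 2 or 4 that count of 4 fell to 2 and 1, and complex I gained calls, to 5, without 550 mg/kg replicate 1 or 0.55 mg/kg replicate 6.

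Calls among the 35 aminoacyl-tRNA synthetases, which charge transfer RNAs, were 3 higher and 1 lower. The mitochondrial enzymes Tars2, Fars2 and Iars2 rose by 0.28 (adjusted p = 0.00014), 0.26 (adjusted p = 0.00063) and 0.23 (adjusted p = 0.003), and Aimp1, a scaffold of the cytosolic complex, had the single decrease, -0.24 (adjusted p = 0.045). In a split by symbol made after the values were seen, all 13 mitochondrial members were positive, with a median of 0.118, and 21 of the other 22 were negative, with a median of -0.128. Aimp1 lost its call in 21 of 29 fits that left out 1 array (adjusted p up to 0.23). Of the 43 genes of import and chaperones 5 rose and 2 fell. Pmpcb, of the peptidase that removes import signals, rose by 0.24 with all 6 arrays above all 23 (adjusted p = 0.00025). Tomm40, the channel of the outer membrane, fell by 0.24, a call lost without 550 mg/kg replicate 1 or 3 (adjusted p up to 0.083). The count of 5 was 3 without any of 12 single arrays, 550 mg/kg replicates 1, 4, 5 and 6 among them.

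Enzymes that conjugate or oxidise small molecules rose in several families beyond the landmark lists. Of 22 alcohol and aldehyde dehydrogenases 4 were called, all higher. Adh7, a class IV alcohol dehydrogenase, ran from 6.57 to 7.60 (median 7.24) against 5.27 to 7.04 (median 6.26), with 4 of 6 arrays above the pool, and rose by 0.99 ± 0.20 (SE; 1.99-fold, adjusted p = 0.0035). Aldh1a1, which makes retinoic acid, ran from 12.01 to 12.47 (median 12.40) against 11.25 to 12.12 (median 11.79) and rose by 0.60 ± 0.10 (SE; adjusted p = 0.00034). Adh1c and Aldh1l1, the cytosolic formyltetrahydrofolate dehydrogenase, rose by 0.56 and 0.35.

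Of 27 glucuronosyltransferases and sulfotransferases 5 were called, all higher. Ugt2b34l1 ran from 5.94 to 6.37 (median 6.18) against 5.05 to 5.89 (median 5.57), with no overlap, and rose by 0.59 ± 0.09 (SE; 1.51-fold, adjusted p = 7.4e-05). Sult2a6, a hydroxysteroid sulfotransferase, had a larger and less certain difference, 0.98 ± 0.27 (SE; adjusted p = 0.046), and 20 of the 29 fits that left out 1 array lost its call (adjusted p up to 0.15). Ugdh, which makes the glucuronic acid donor, rose by 0.23 (adjusted p = 0.013) and Ugt2b1 by 0.32 (adjusted p = 0.011), and both lost their calls without 550 mg/kg replicate 1 (adjusted p = 0.058 and 0.053). The count of 5 became 2 without 550 mg/kg replicate 1 and 3 without any of 13 other arrays, replicates 2, 4, 5 and 6 at 550 mg/kg among them. Members of the Ugt2b and Sult2a families are near copies, and signal shared between them cannot be told apart here.

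In amino acid conjugation of acids 4 of 12 genes rose and 1 fell. Glyatl2, a glycine acyltransferase, ran from 8.78 to 9.11 (median 8.93) against 8.06 to 8.73 (median 8.29), with no overlap, and rose by 0.63 ± 0.08 (SE; 1.55-fold, adjusted p = 2e-06). Acsm5, which activates medium-chain acids, rose by 0.77 (adjusted p = 0.013), a call lost without 550 mg/kg replicate 1 (adjusted p = 0.062). Acy3, which removes acetyl groups from mercapturic acids, fell by 0.55 ± 0.08 (SE; adjusted p = 7.4e-05), with 5 of 6 arrays below the pool. Cyb5a, the cytochrome b5 that passes electrons to P450 enzymes, rose by 0.27 with all 6 arrays above all 23 (adjusted p = 2.4e-06). Of 29 drug P450s of families 2 and 3 only Cyp2j4 rose, by 0.40 (adjusted p = 3.5e-05), and only Cyp2u1 fell, a call lost in 21 of 29 fits that left out 1 array (adjusted p up to 0.16). Ces2c, a carboxylesterase, rose by 0.40 (adjusted p = 0.0003), 1 of 4 called among 15 hydrolases, and that count was 1 or 2 without any of 10 single arrays and 1 with array medians subtracted. Gstt3, a theta class glutathione S-transferase on no list, rose by 0.76 ± 0.16 (SE; adjusted p = 0.0054).

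Few genes of lipid handling outside fatty acid oxidation passed the test. All 21 cholesterol synthesis genes were negative, with a median of -0.192, and 2 were called. The list means of the high-dose arrays ran from -0.523 to 0.0348 around the pool mean, with replicate 4 positive, and those of the pool from -0.445 to 0.419, so 1 of 6 lay below all 23. Idi1, which isomerises the isoprenoid unit, ran from 10.51 to 11.31 (median 10.90) against 10.63 to 11.96 (median 11.37), groups that overlapped in 5 of 6 arrays, and fell by 0.51 ± 0.13 (SE; adjusted p = 0.024). Squalene epoxidase (Sqle) and Hsd17b7 had values of -0.58 (adjusted p = 0.0563) and -0.46 (adjusted p = 0.0653), short of the threshold. Idi1 lost its call without 550 mg/kg replicate 1, 2 or 3 (adjusted p up to 0.11), and the other called gene, Scap, in 23 of 29 fits that left out 1 array. The 55 mg/kg arrays had a median of -0.174 for this list. Among 35 apolipoprotein genes 3 fell and 3 rose. Apoa4 ran from 10.77 to 11.26 (median 11.08) against 11.22 to 12.03 (median 11.70), with 5 arrays below the pool, and fell by 0.67 ± 0.08 (SE; adjusted p = 5.3e-06). Apoa1, the main protein of high-density lipoprotein, ran from 12.70 to 13.20 (median 12.91) against 13.23 to 13.60 (median 13.36), with no overlap, and fell by 0.45 ± 0.05 (SE; adjusted p = 6.3e-07). Lcat, which esterifies cholesterol on those particles, fell by 0.21. Apon rose by 0.35, and Apoo and Apool, which sit in the mitochondrial inner membrane, rose by 0.28 and 0.21.

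Some secreted proteins and protease inhibitors fell strongly. A2m, the protease trap alpha-2-macroglobulin, ran from 6.91 to 8.02 (median 7.63) against 8.49 to 10.10 (median 9.17), with no overlap, and fell by 1.67 ± 0.19 (SE; 3.18-fold, adjusted p = 7.1e-07). Serpinb9b ran from 5.83 to 7.95 (median 6.46) against 6.92 to 9.04 (median 8.39), with 5 of 6 arrays below the pool, and fell by 1.69 ± 0.26 (SE; 3.22-fold, adjusted p = 0.00014). Serpina6, which carries corticosteroids in plasma, fell by 0.35 (adjusted p = 1.5e-05). In all, 4 of 41 serpins and other inhibitors fell and none rose. The acute phase list had 2 of 29 higher and 2 lower, with Orm1 at 0.47 (adjusted p = 0.0097), Crp at 0.18 and Apcs at -0.18. Crp was not called without 550 mg/kg replicate 1, 3, 5 or 6 (adjusted p up to 0.13), nor Apcs without replicate 6 (adjusted p = 0.069). Pbsn, which encodes probasin, a lipocalin known from the prostate, had the largest called decrease, 1.79 ± 0.33 (SE; 3.45-fold, adjusted p = 0.001), from a pool range of 6.43 to 9.67 (median 7.73) to 5.32 to 7.16 (median 5.93).

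Retinoid, metal and transport genes gave single large changes. Rdh5, a retinol dehydrogenase, ran from 6.76 to 7.33 (median 6.92) against 7.37 to 7.86 (median 7.59), with no overlap, and fell by 0.64 ± 0.07 (SE; adjusted p = 3.9e-07). Its second probe set, at -0.23, was not called. Rbp7, a retinol-binding protein, fell by 0.70 (adjusted p = 0.00027). The zinc importer Slc39a4 ran from 8.27 to 9.04 (median 8.67) against 7.42 to 8.21 (median 7.79), with no overlap, and rose by 0.85 ± 0.10 (SE; adjusted p = 2.5e-06). Slc30a3, which moves zinc into vesicles, fell by 0.51 (adjusted p = 0.03), a call lost without any of 550 mg/kg replicates 1, 2, 3, 4 and 6 (adjusted p up to 0.11). Slc13a3, a carrier of dicarboxylates, ran from 7.51 to 8.27 (median 8.07) against 8.32 to 8.96 (median 8.53), with no overlap, and fell by 0.59 ± 0.08 (SE; adjusted p = 1.6e-05). Aig1, a hydrolase of the fatty acid esters of hydroxy fatty acids, rose by 0.84 ± 0.09 (SE; adjusted p = 4.3e-07) with all 6 arrays above the pool, while its other probe set showed 0.02 and was not called. In heme and iron handling 5 of 35 genes rose and none fell, among them Fech, which inserts iron into heme, at 0.28 and Blvrb, which reduces biliverdin, at 0.34.

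Amino acid and sugar metabolism moved in both directions. In amino acid breakdown 6 of 49 genes rose and 3 fell, led by Ddc, an aromatic amino acid decarboxylase, at 0.35 (adjusted p = 0.00088), and by Agxt, the peroxisomal glyoxylate aminotransferase, at -0.33 (adjusted p = 0.016). The 3 decreases became 0 or 1 without 550 mg/kg replicate 2, 4, 5 or 6, Agxt lost its call without replicate 1 or 4 (adjusted p up to 0.076), and the 6 increases became 3 without replicate 3. In the serine, folate and methionine list Atf5, a transcription factor of the amino acid stress response, fell by 0.49 (adjusted p = 0.0074) and Slc3a2, the heavy chain of several amino acid transporters, by 0.48 (adjusted p = 0.021). Atf5 lost its call without 550 mg/kg replicate 3 and Slc3a2 without replicate 1, 3 or 4 (adjusted p up to 0.12), and the 3 decreases of that list became 1 without replicate 3 or 4. Ctps1, which makes cytidine nucleotides, fell by 0.57 (adjusted p = 0.013), a call lost without replicate 3 or 4 (adjusted p up to 0.069). In the urea cycle Asl fell by 0.24 (adjusted p = 0.007). Sord, which oxidises sorbitol, ran from 11.71 to 11.91 (median 11.83) against 11.36 to 11.59 (median 11.47), with no overlap, and rose by 0.35 ± 0.04 (SE; adjusted p = 4.3e-07). Tkt, the transketolase of the pentose phosphate pathway, rose by 0.27 (adjusted p = 0.0094). Those made 2 of 4 called among 30 genes of glycolysis and the pentose phosphate pathway, a count that was 2 without 550 mg/kg replicate 4, 5 or 6 and 2 with array medians subtracted.

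None of 40 interferon response, 24 antigen presentation, 49 chemokine and cytokine, 45 nuclear receptor and transcription factor, 20 circadian clock, 15 male-biased and 14 female-biased genes passed the test. Over all genes 3.93% passed, a share at which lists of these sizes would hold few calls. Of 20 genes of thyroid hormone handling and response 1 rose and 1 fell, of 26 steroid reductases and hydroxysteroid dehydrogenases 3 rose (1 without 550 mg/kg replicate 5), and of 25 complement genes 1 fell. For comparison, 2.4% of all genes rose and 1.53% fell. Dio1, the deiodinase that activates thyroid hormone, fell by 0.38 (adjusted p = 0.0041). Of 28 hepatocyte uptake and efflux transporters 1 rose and 1 fell (3.57% each). The decrease was that of Slco1a4, an organic anion carrier, by 0.29 (adjusted p = 0.0013), and the largest increase in that list was 0.94. In collagens and matrix 1 of 82 genes fell, Comp, at -0.55 (adjusted p = 0.0055), and 1 rose, Lama3, at 0.45, a call lost without 550 mg/kg replicate 3, 4, 5 or 6 (adjusted p up to 0.095). These are 1.22% in each direction, below the shares over all genes.

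Markers of other liver cell types did not pass the test. None of 15 Kupffer cell, 17 endothelial, 18 stellate cell, 12 cholangiocyte, 22 lymphocyte, 8 neutrophil and 7 red blood cell markers was called, against 3.93% of all genes. At that share lists this small would hold few or no calls, so the lack of calls says little about these cells. Most had negative values in several lists, 14 of 15 for Kupffer cells, 14 of 18 for stellate cells, 16 of 22 for lymphocytes and 6 of 7 for red blood cells. The counts were 11 of 17 for endothelial, 6 of 12 for cholangiocyte and 5 of 8 for neutrophil markers. Over all genes 7344 of 14217 were negative. Because RMA values have no true 0, no marker can be given as absent. The mean log2 level of the lymphocyte markers ran from 4.83 to 5.11 at 550 mg/kg and from 4.75 to 5.18 in the pool, and that of the Kupffer cell markers from 8.17 to 8.76 and from 7.79 to 8.96. Red blood cell markers had a median difference of -0.197, with levels from 5.49 to 5.74 against 5.64 to 6.21, and the globin Hba-a3, on no list and chosen after its value was seen, fell by 0.48 (adjusted p = 0.02). Of 11 hepatocyte markers Apoa1 alone was called and 9 were negative, with a median of -0.0409, and the list means of all 6 high-dose arrays lay below all 23. For 3 of the 11 markers, all 6 high-dose arrays lay below all 23, against 0.0633% of all genes. The share of these cell types in the mitosis and secreted protein changes was not tested. Among lobule genes, periportal hepatocyte genes had 3 of 21 lower and none higher (Apoa4, Asl and Fbp1, the last not called without 550 mg/kg replicate 4, adjusted p = 0.13), and pericentral genes 2 of 20 higher and 1 lower. Of all genes 2.4% were higher and 1.53% lower.

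**Figure D5:**
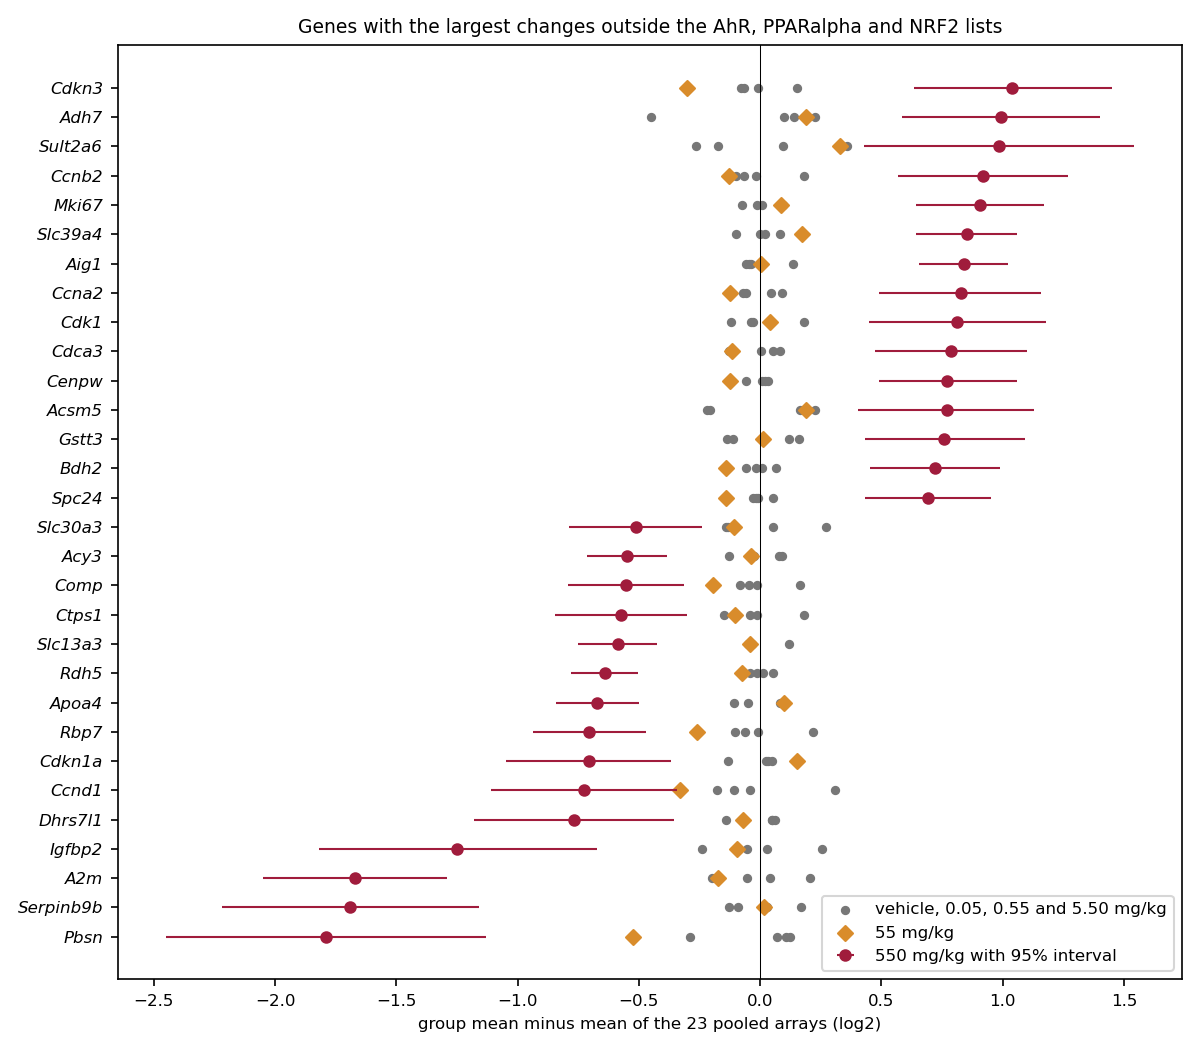
Group means minus the mean of the 23 pooled arrays, on the log2 scale, for the 15 largest increases and 15 largest decreases outside the AhR, PPARalpha and NRF2 lists, with 95% intervals at 550 mg/kg (dark red), 55 mg/kg as orange diamonds and the 4 pooled groups as grey points. For Cdkn3 the 55 mg/kg mean is -0.30 and the 550 mg/kg mean 1.04, and for Pbsn they are -0.53 and -1.79.

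The 550 mg/kg arrays were then set against 55 mg/kg, a comparison that shares its high-dose arrays with the one above and so adds no independent support. Of 31042 probe sets 233 (0.751%) were called, and of the genes 175 (1.23%), 146 higher and 29 lower at 550 mg/kg. Of the 58 mitosis genes 15 were called, with Mki67 at 0.82 (adjusted p = 0.0036), Ccnb2 at 1.05 (adjusted p = 0.0068) and Cdkn3 at 1.34 (adjusted p = 0.0044). Of the 57 ribosome biogenesis genes none was called. Gar1 differed by -0.46 (adjusted p = 0.15) and Ddx21 by -0.37 (adjusted p = 0.22), with 55 mg/kg at -0.01 and -0.05 from the pool. Apoa1, Apoa4, A2m, Rdh5, Slc39a4 and Sord differed from 55 mg/kg by -0.38, -0.77, -1.50, -0.57, 0.68 and 0.31, all called. Cdkn1a was called as well, at -0.86 (adjusted p = 0.035), whereas Ccnd1 was not, at -0.39 (adjusted p = 0.62), with 55 mg/kg at -0.33 from the pool. Fitting the 12 arrays of these groups alone gave 76 called probe sets.

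With vehicle alone as the reference, the medians of 4 lists kept their sign while most calls were lost. The median was 0.262 for mitosis, -0.159 for ribosome biogenesis, 0.0991 for the tricarboxylic acid cycle list and -0.252 for cholesterol synthesis, and the called members were 0, 0, 0 and 0. Against the pool these medians were 0.286, -0.215, 0.126 and -0.192. For ribosome biogenesis and the tricarboxylic acid cycle, vehicle alone gave the median closest to no change of all the alternatives. Of the 154 named genes called against the pool, 23 were called in all those of 44 distinct other settings that tested them, vehicle alone included. A gene whose probe set was left out of a setting was not counted as lost there. Comp and Rbp7, both among the 23, were not tested in every setting. Outside the landmark lists they include A2m (-1.61 against vehicle, adjusted p = 0.024), Apoa1 (-0.51, adjusted p = 0.03), Apoa4 (-0.75, adjusted p = 0.0083), Rdh5 (-0.69, adjusted p = 0.0083), Rbp7 (-0.92, adjusted p = 0.03), Serpina6 (-0.43, adjusted p = 0.015), Slc39a4 (0.83, adjusted p = 0.03), Aig1 (0.89, adjusted p = 0.0028), Glyatl2 (0.60, adjusted p = 0.0042) and Acat1 (0.40, adjusted p = 0.035). For Ccnb2, Mki67 and Cdk1 the differences from vehicle alone were 0.94, 0.81 and 0.84, with an adjusted p of 0.23, 0.25 and 0.32. References lacking 0.05, 0.55 or 5.50 mg/kg or vehicle lost 35, 26, 14 and 11 of the 154 calls. The reference lacking 0.05 mg/kg ended those of Ccnd1 (adjusted p = 0.11), Gar1 (adjusted p = 0.076) and Idi1 (adjusted p = 0.078), and the reference lacking 0.55 mg/kg those of Ddx21 (adjusted p = 0.056) and Heatr1 (adjusted p = 0.054).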

How the data were processed

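The authors deposited log2 values for each probe set. The submitters' processing notes name RMA and affy as tools, with no version, chip definition or filter given in the sources used here. RMA commonly includes quantile normalisation, which would hide a change shared by most genes, and it compresses differences close to background, so folds of dim genes are understated. No further normalisation was applied.

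Of 31099 rows 57 Affymetrix controls were left out. Of the other 31042, platform annotation gave 20826 a single gene symbol, 436 several and 9780 none; symbols were updated by Entrez identifier to GRCr8, where 20758 matched. A gene was represented by its probe set with the highest mean over the 29 arrays.

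Differences were fitted with limma 3.58.1 in R 4.3.3 (lmFit, eBayes, two-sided, Benjamini-Hochberg over all 31042 probe sets, adjusted p under 0.05), with 2 groups over 29 arrays, 3 groups over 35 arrays for 55 mg/kg, and an F test among the pooled groups. The design text compared each dose with vehicle; the pool departs from that. Scripts were tested on simulated data. Figures used Python 3.11.15 and matplotlib 3.10.9.

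The 71 gene lists, the comparison and the naming rule were chosen with earlier results of these data known, so lists are described by counts and medians, without tests. Named genes were the 15 largest called increases and 15 largest decreases outside the 3 landmark lists with all 6 arrays on one side of the pool mean, up to 4 called members per list and the landmarks. Other called members of a list, and genes described as chosen after their values were seen, fall outside that rule. Alternatives covered filters, scaling, variance models, the reference group and leaving out each array. Promoter sequences came from RefSeq (GRCr8).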

Additional observations from a re-analysis of the deposited data

Results flagged for a closer look

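Among the 6 arrays at 550 mg/kg, 170 named genes and 71 list means were searched for a single array far from the other 5 (gap to the nearest array over the whole range above Dixon's 95% critical value). Chance alone marks about 1 in 20 such groups. The search gave 7 genes and 5 list means. Replicate 6 was highest for Cdca3, at 7.958 against 7.078 for the nearest array, and for the splicing protein Snrpd3, at 8.968 against 8.788. It was lowest for Slc13a3, at 7.511 against 8.006, and for the mean of the glucuronosyltransferases and sulfotransferases, at -0.182 against 0.0699 from the pool mean. Replicate 3 was lowest for Aldh1a1, at 12.01 against 12.32, and for Nqo1, at 8.525 against 9.263. It was highest for the mean of ketone, propionate and branched-chain oxidation, at 0.234 against 0.145, and of immediate early and growth signals, at 0.116 against -0.0728. Replicate 4 was lowest for the gluconeogenic enzyme Fbp1, at 12.3 against 12.5, and replicate 2 highest for Hibch, at 9.958 against 9.888. Replicate 1 was lowest for the tricarboxylic acid cycle mean, at 0.047 against 0.12, and highest for the lymphocyte marker mean, at 0.133 against -0.0886. The causes were not tested.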

How the results depend on the processing

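The main comparison called 772 probe sets. References lacking 0.05 mg/kg gave 497, vehicle alone 41, and a change of at least 1.5-fold 65, and leaving out each array gave 490 to 831. The 27 mitosis calls were 0 with vehicle alone and 18 to 29 without 1 array. The 16 ribosome biogenesis calls were 10 lacking 0.05 mg/kg, 8 lacking 0.55 mg/kg, 0 with vehicle alone and 2 to 19 without 1 array. The 12 tricarboxylic acid cycle calls were 6 lacking 0.05 mg/kg, 0 with vehicle alone and 6 to 12 without 1 array. The 9 ketone, propionate and branched-chain calls were 1 with vehicle alone and 4 to 9 without 1 array. Of the 71 lists, 55 held at least 1 call, 18 with vehicle alone and 53 to 58 without 1 array. Against 55 mg/kg, 233 calls became 76 with only the 12 arrays, 41 at 1.5-fold or more and 141 (without 55 mg/kg replicate 1) to 215 without 1 array. Vehicle alone holds fewer arrays and no low dose; which of these lowered the counts was not tested.

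No named call reversed under any of 44 distinct alternatives (a reference lacking vehicle and one of the 3 low doses are the same fit), and 97 of 154 held without any single array. Array medians subtracted gave 52.1% of calls higher in place of 59.7%, and cyclic loess 60.5%. Among the pooled groups the F test called 0 in each of 4 settings, with 763 to 1590 at an unadjusted p under 0.05. With the replicate number as a block the counts were 649 for the pool and 212 for 55 mg/kg, and 26, 12, 10 and 8 for the 4 lists in the order above. Deviations of same-numbered arrays had a median correlation of -0.022 over 56 pairs, 11 of them over 0.1, so the numbers were not taken as pairing. For arrays the signal over background limits dim genes, such as Comp, whose pooled median was 4.19. Mki67 and some other called mitosis genes were dimmer. Pooled medians were 3.66 for Bub1, 3.34 for Espl1 and 3.08 for Depdc1. The genes of other tissues had a median level of 3.66. Without the 40% dimmest probe sets the mitosis calls were 19 in place of 27. Those of ribosome biogenesis, the tricarboxylic acid cycle and the ketone, propionate and branched-chain list were then 22, 15 and 11.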

Other observations

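Called genes on none of the 71 lists numbered 327, 178 higher and 149 lower, and the genes below were chosen among them after their values were seen, so their counts support nothing. Further nucleolar genes were lower, among them Utp18 at -0.37 (adjusted p = 0.0079), Pak1ip1 at -0.43 (adjusted p = 0.011), Mphosph10 at -0.32 (adjusted p = 0.042) and Ftsj3 at -0.30 (adjusted p = 0.023). Polyamine synthesis was mixed. Ornithine decarboxylase (Odc1), its first enzyme, was lower by 0.30 ± 0.06 (SE; adjusted p = 0.0045) and spermidine synthase (Srm) by 0.41 ± 0.09 (SE; adjusted p = 0.0069), whereas spermine synthase (Sms) was higher by 0.31 ± 0.06 (SE; adjusted p = 0.0033). The cytosolic chaperonin, which folds actin and tubulin, had 2 of 8 subunits called, Tcp1 at -0.26 (adjusted p = 0.00039) and Cct5 at -0.16 (adjusted p = 0.022), and all 8 were negative.

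Among mitochondrial genes, the superoxide dismutase Sod2 ran from 11.23 to 11.38 at 550 mg/kg and from 10.83 to 11.18 in the pool, with no overlap (difference 0.27, adjusted p = 0.00023). The peroxiredoxin Prdx3 was higher by 0.24 (adjusted p = 9.3e-05) and the thioredoxin reductase Txnrd2 by 0.21 (adjusted p = 0.0023). Of 12 genes of coenzyme Q synthesis 3 were called, all higher, with Coq6 at 0.28 and all 6 arrays above the pool (adjusted p = 0.00012). Theta class glutathione S-transferases were all higher, Gstt1 by 0.48 (adjusted p = 2.1e-06), Gstt2 by 0.15 (adjusted p = 0.041) and Gstt3 by 0.76 (adjusted p = 0.0054). Further genes of division were higher too, such as the spindle pole protein Aspm at 0.48 (adjusted p = 0.0068) and the replication clamp partner Pclaf at 0.70 (adjusted p = 0.0031).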
